A study of Homo sapiens with 6 samples.

Results

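Transcripts of the cathepsins, the vacuolar proton pump and the LAMP membrane proteins were followed by RNA-seq in SW620, a line established from a human colorectal cancer. The 3 siOSBPL3 libraries came from cells given an siRNA against OSBPL3, and the 3 siNC libraries from cells given a control siRNA. Both groups carry the same label for line and cell type. How much siRNA was used, and for how long, is not given in the sources used here. Nothing in the labels says that replicates were grown as separate cultures. All p-values here therefore rest on a spread between libraries that may be technical. A gene was a member where its symbol was CTS plus a letter, began with ATP6V or ATP6AP, or was LAMP1, LAMP2 or LAMP3. Of 20729 genes in the deposited count table, 41 were members. Another 3 symbols that began with ATP6V (ATP6V0D1-DT, ATP6V0E2-AS1 and ATP6V1B1-AS1) were left out as divergent or antisense transcripts.

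Lysosomes digest proteins, lipids and sugars in an acidic lumen. The acid is supplied by the V-ATPase, a rotary pump in which a cytosolic V1 sector hydrolyses ATP and a membrane-embedded V0 sector moves protons. Cathepsins are the proteases of this compartment, most of them with a catalytic cysteine, and several are secreted by tumour cells. LAMP1 and LAMP2 are heavily glycosylated proteins that line the lysosomal membrane. Many lysosomal genes carry an E-box, the binding motif of the TFEB, TFE3 and MITF factors, near their start.

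The siRNA target came first as a check of the labels. OSBPL3 stood at 40.2, 12.2 and 15.1 CPM (counts relative to the TMM-scaled library size) in the siOSBPL3 libraries, against 179, 174 and 175 CPM in the siNC libraries, a log2 fold change of -2.97 ± 0.48 (SE; edgeR quasi-likelihood test, adjusted p = 0.0016). The groups did not overlap, and siOSBPL3 replicate 1 kept the most transcript of its group. Library totals ran from 30040020 to 39701340 counts. The groups stood far apart. Across tested genes, Pearson correlations of log2 CPM were 0.989 to 0.994 among siOSBPL3 libraries and 0.997 among siNC libraries, but 0.802 to 0.809 between groups, and 80.2% of 15506 tested genes were called (79.9% of the 12666 genes above the count filter in both groups). Of the 9 colorectal epithelial markers, 7 reached 1 CPM in every siOSBPL3 library and 6 in every siNC library. Their sums were 4878 to 6001 CPM in siOSBPL3 and 7100 to 7178 CPM in siNC. Single markers were mixed. The intestinal factor CDX2 was at 53.4, 72.7 and 64.6 CPM in siOSBPL3 and at 1.46, 1.295 and 0.71 CPM in siNC. VIL1 went the other way, at 64.9, 62.8 and 60.1 CPM in siOSBPL3 and at 483, 485 and 478 CPM in siNC. EPCAM and KRT19 were higher in siOSBPL3, KRT8 and KRT18 were lower, and CDH1 overlapped between the groups. KRT20 and CDX1 were at or near 0 in every library. The part of so wide a difference in the values of lysosomal genes was not tested, and loss of OSBPL3 and any other difference between the 2 sets of cells cannot be told apart.

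Transcripts of this lysosomal set were mostly higher in siOSBPL3. Of the 41 members, 38 passed the filter on low counts, and 33 of these were called at an adjusted p of 0.05, 26 higher and 7 lower. Among all tested genes 40.4% were called higher and 39.8% lower. Since 6 members passed the filter through 1 group only (CTSE, CTSF, CTSO and ATP6V1FNB through siOSBPL3, ATP6V0A4 and ATP6V1G2 through siNC), the 32 members above it in both groups were also counted alone. Of these, 22 rose (68.8%), 6 fell (18.8%) and 4 were not called, whereas of the 12666 genes above the filter in both groups 40.4% rose and 39.5% fell. The median log2 fold change was 1.16 over these 32 members and 0.01 over those 12666 genes. At least a 2-fold change was called for 21 members upward and 2 downward, against 24.8% and 24.1% of all tested genes. The groups did not overlap for 35 of the 38 tested members, against 83.0% of all tested genes. Being bulk RNA, these values cannot tell apart fewer cells with a transcript and less transcript per cell.

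Most cathepsins rose. Of 14 cathepsin genes, 13 were tested, of which 11 rose, 1 fell and 1 was not called, and each of the 12 called changed at least 2-fold. Over all tested genes 40.4% rose and 39.8% fell, and 24.8% and 24.1% did so by at least 2-fold. CTSE, CTSF and CTSO passed the filter through siOSBPL3 only. Of the 10 cathepsins above it in both groups, 8 rose, 1 fell and 1 was not called, with a median log2 fold change of 1.66, and of 1.17 corrected for GC content and length. Summed over all 14, cathepsin transcripts stood at 1648, 1812 and 1692 CPM in the siOSBPL3 libraries and at 828, 822 and 824 CPM in the siNC libraries, so that the groups did not overlap.

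The broad endopeptidase gene CTSL (chromosome 9, 87726119 to 87731469, GRCh38.p14) stood at 162, 150.0 and 156 CPM in siOSBPL3 libraries, against 7.64, 6.30 and 6.98 CPM in siNC libraries (log2 fold change 4.48 ± 0.10 SE, adjusted p = 6.32e-12). Its groups lay more than an order of magnitude apart, with little spread in either. CTSH (chromosome 15, 78921058 to 78945046), which encodes an aminopeptidase, stood at 99.5, 118 and 118 CPM in siOSBPL3 and at 3.32, 4.37 and 3.51 CPM in siNC (4.91 ± 0.13). Correcting each library for the GC content and length of transcripts left CTSL at 4.13 and CTSH at 4.51. CTSL has 6 pseudogenes named after it in GENCODE 29, so its counts are uncertain where reads could be split.

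The rise of CTSB, CTSD, CTSZ and CTSA was smaller than that of CTSL and CTSH. CTSB, the most abundant cathepsin by CPM in the siOSBPL3 libraries, stood at 586, 627 and 593 CPM there and at 250.003, 248 and 247 CPM in siNC (1.28 ± 0.08). CTSD (chromosome 11, 1752755 to 1763927), the main aspartic protease of lysosomes, stood at 371, 421 and 370.2 CPM in siOSBPL3 and at 79.2, 81.5 and 89.8 CPM in siNC (2.22 ± 0.09). Both groups were tight for these genes and lay well apart. CTSZ (20q; chromosome 20, 58995185 to 59007254), a carboxypeptidase gene, was at 129.8, 149.8 and 133 CPM in siOSBPL3 and at 48.0, 51.2 and 44.6 CPM in siNC (1.52 ± 0.09). CTSA (also on 20q; chromosome 20, 45891335 to 45898820) encodes the serine carboxypeptidase that shields the lysosomal enzymes GLB1 and NEU1. It stood at 164, 215 and 188 CPM in siOSBPL3 and at 50.6, 56.9 and 55.1 CPM in siNC (1.80 ± 0.11). The siOSBPL3 libraries were again all above the siNC libraries. After that correction CTSD was at 1.19, CTSA at 1.14 and CTSZ at 0.75, all still called. Exons of CTSA overlap PLTP on the opposite strand, which was at 0.0452 CPM in siOSBPL3 and at 12.97 CPM in siNC, and whether reads were counted by strand is not given in the sources used here.

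CTSC went the other way. It encodes dipeptidyl peptidase 1, which activates the serine proteases of immune-cell granules by trimming their ends. CTSC (chromosome 11, 88293592 to 88337736) stood at 69.3, 70.1 and 75.1 CPM in siOSBPL3 libraries and at 379, 362 and 366 CPM in siNC libraries (-2.37 ± 0.08, adjusted p = 1.63e-10). It was the most abundant cathepsin by CPM in siNC, and its groups did not overlap. With the GC and length correction its log2 fold change was -1.53.

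**Figure D1:**
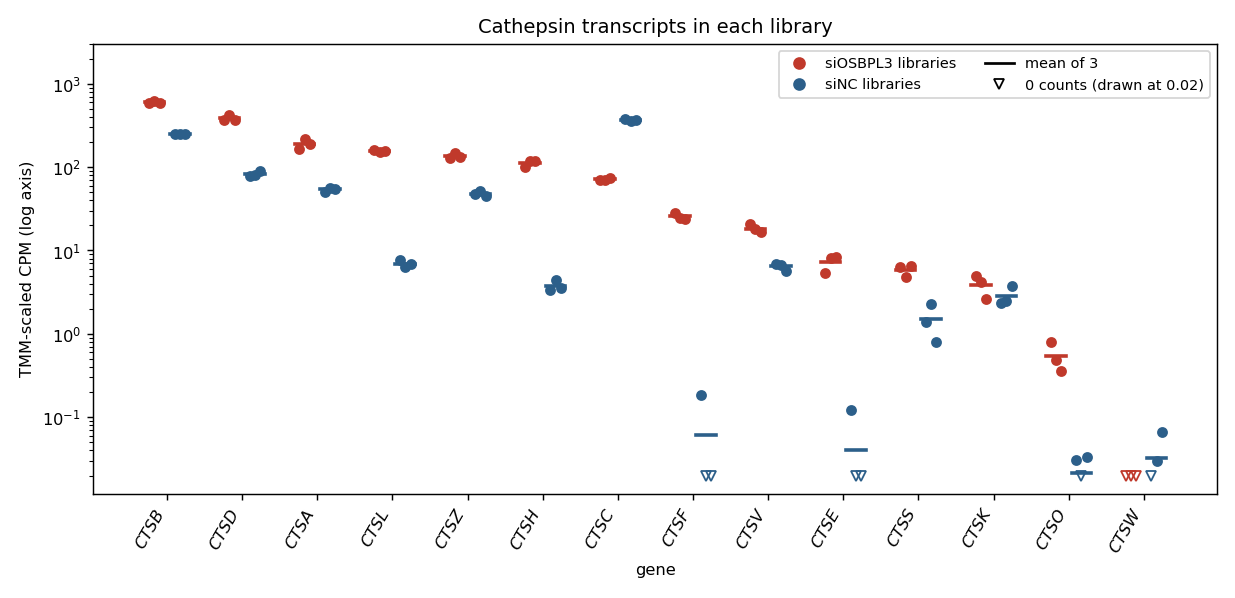
TMM-scaled CPM (log axis) of the 14 cathepsin genes, with a point for each library, siOSBPL3 in red and siNC in blue, and bars at the means of 3 libraries; open triangles mark libraries with 0 counts. CTSC is the cathepsin that fell, at 69.3 to 75.1 CPM in siOSBPL3 and 362 to 379 CPM in siNC.

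A few cathepsins were nearly absent from siNC. CTSF (chromosome 11, 66563464 to 66568606) belongs to the papain family. It was at 28.5, 24.6 and 23.9 CPM in siOSBPL3, but in siNC it had 6 counts in replicate 1 and 0 in the others. The ratio of summed counts was 409, with a 95% counting interval from 187 to 1114. CTSE (chromosome 1, 206009264 to 206023895), an aspartic protease of endosomes found in gastric epithelium, was at 5.34, 8.15 and 8.29 CPM in siOSBPL3. In siNC it had 4 counts, all in replicate 1 (ratio 175, interval 67.9 to 642). CTSO had 29, 18 and 14 counts in siOSBPL3 and 1, 0 and 1 in siNC (ratio 26.0, interval 6.90 to 220). Fitted log2 fold changes of such genes hang on few counts. Without siNC replicate 1 they moved to 12.81 for CTSF and 10.99 for CTSE, against 8.60 and 7.32 with all libraries. Intervals cover counting error only.

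The remaining cysteine cathepsins were of low abundance. CTSV, the closest relative of CTSL, stood at 20.6, 18.0 and 16.5 CPM in siOSBPL3 and at 6.94, 6.75 and 5.70 CPM in siNC (1.50 ± 0.14), and was higher still with the GC and length correction (2.01). CTSS, a protease of antigen-presenting cells, stood at 6.29, 4.84 and 6.55 CPM in siOSBPL3 and at 1.37, 2.29 and 0.81 CPM in siNC (1.97 ± 0.33, and 2.57 with the correction). Both genes rose with no overlap of the groups. CTSK, the collagen-degrading cathepsin of osteoclasts, overlapped between the groups. It was at 4.90, 4.18 and 2.60 CPM in siOSBPL3 and at 2.31, 2.47 and 3.71 CPM in siNC (adjusted p = 0.16, and 0.040 without siOSBPL3 replicate 3). CTSW, a lymphocyte gene, had no count in siOSBPL3 and 0, 1 and 2 counts in siNC, and was not tested. A count of 0 allows up to 3 counts over the group, or 0.0267 CPM in siOSBPL3.

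Markers of other cell types were summed as a check. The 7 macrophage markers in the table summed to 5.31 to 7.42 CPM in siOSBPL3 and to 3.10 to 3.38 CPM in siNC, with 2 and 1 of them at 1 CPM or more in every library of the group. The pan-leukocyte gene PTPRC was at 0.03 to 0.25 CPM in siOSBPL3 and at 0.06 to 0.12 CPM in siNC. Single macrophage markers were mixed. CD14 (2.41 to 3.84 CPM in siOSBPL3 and 0.17 to 0.37 CPM in siNC) and ITGAM (1.09 to 2.71 and 0 to 0.03 CPM) were higher in siOSBPL3. LYZ was lower there (0 to 0.53 and 1.75 to 2.16 CPM), and CSF1R, CD163 and FCGR1A overlapped between the groups. The 7 neutrophil and cytotoxic lymphocyte markers summed to 9.32 to 14.2 CPM in siOSBPL3 and to 10.9 to 12.4 CPM in siNC, with MPO at 0 in siOSBPL3 and GZMB at 0 in siNC. The 2 osteoclast markers summed to 0.0253 to 0.766 CPM in siOSBPL3 and to 3.10 to 3.78 CPM in siNC, with ACP5 at 0 in siOSBPL3. Fibroblast markers, 4 in the table, summed to 2.78 to 5.39 CPM in siOSBPL3 and to 69.2 to 72.5 CPM in siNC, with COL3A1 at 0 in siNC. LUM was at 0 in siOSBPL3 and at 62.5, 61.1 and 57.4 CPM in siNC. The 2 melanocyte markers in the table summed to 1.47 to 3.10 CPM in siOSBPL3 and to 2.26 to 2.50 CPM in siNC. Their part in the cathepsin values was not tested.

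The make-up of the cathepsin transcripts differed as well. Counts were divided by transcript length, giving CPM per kb of the longest GENCODE transcript, and each cathepsin was taken as a share of their sum. CTSC made up 1.73% ± 0.13 in siOSBPL3 libraries and 26.3% ± 0.79 in siNC libraries (SD, n = 3 each). CTSL made up 10.6% ± 0.99 in siOSBPL3 and 1.396% ± 0.14 in siNC, and CTSH made up 7.56% ± 0.54 in siOSBPL3 and 0.74% ± 0.11 in siNC. CTSD held 27.0% ± 0.69 in siOSBPL3 and 17.1% ± 1.11 in siNC. Shares of CTSB were closer, at 23.0% ± 0.45 in siOSBPL3 and 27.9% ± 0.33 in siNC, and those of CTSZ overlapped between the groups, at 13.6% ± 0.29 in siOSBPL3 and 13.97% ± 0.95 in siNC. By level per kb, CTSD (183 ± 13.8 CPM per kb) led in siOSBPL3, followed by CTSB (155 ± 5.66) and then CTSZ (92.1 ± 7.13) and CTSA (88.0 ± 12.1), which did not differ beyond their spread. In siNC, CTSB (64.1 ± 0.38 CPM per kb) came before CTSC (60.3 ± 1.41) and CTSD (39.3 ± 2.64).

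**Figure D2:**
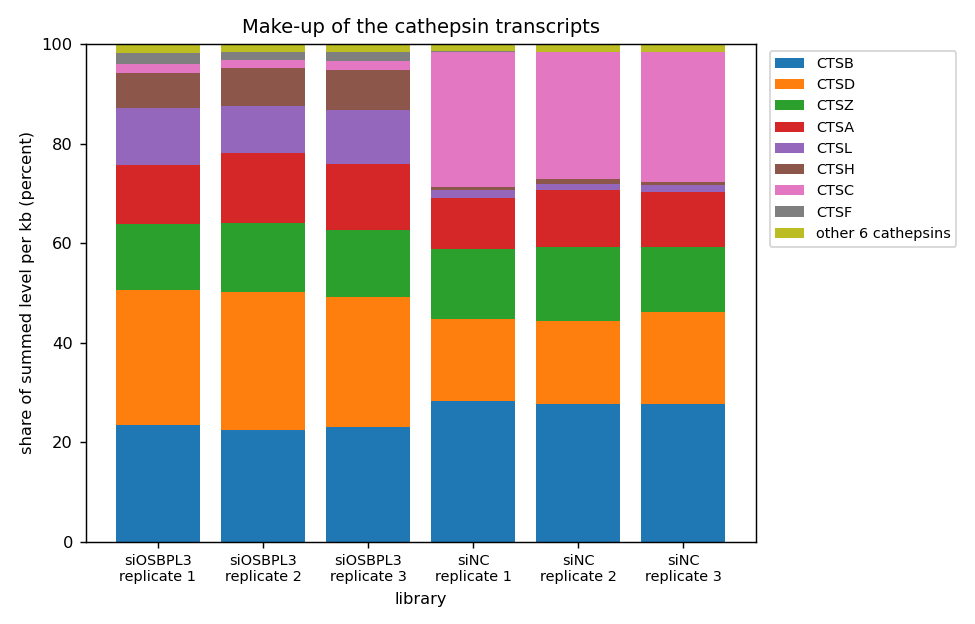
Share of each cathepsin in the summed cathepsin level per kb (percent, stacked to 100), a bar per library, siOSBPL3 on the left and siNC on the right. CTSC takes 26.3% on average in siNC and 1.73% in siOSBPL3, where CTSL and CTSH take 10.6% and 7.56%.

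The V-ATPase genes split by subunit. Of 11 V1 genes tested, 7 rose, 3 fell and 1 was not called. Of 9 V0 genes 8 were tested, of which 4 rose, 1 fell and 3 were not called. The share of all tested genes was 40.4% higher and 39.8% lower, so that the share of V0 genes that rose lay near that of all genes. Over genes above the filter in both groups, the median log2 fold change was 0.62 for 10 V1 genes and 1.48 for 7 V0 genes, against 0.01 for all such genes. Corrected for GC content and length, these medians were 0.35 for V1 and 1.03 for V0. Summed V0 transcripts stood at 633, 786 and 811 CPM in siOSBPL3 libraries and at 328, 324 and 325 CPM in siNC libraries. Summed V1 transcripts overlapped between the groups, at 745, 884 and 966 CPM in siOSBPL3 and at 773, 780 and 775 CPM in siNC. In siOSBPL3 replicate 1, 15 of 19 tested subunit genes had the lowest value of their group, against 6 of 13 tested cathepsins. That library also kept the most OSBPL3 transcript, and its part in these results is given beside each gene whose call it changed.

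In the proton-translocating ring of V0, both proteolipid genes rose. ATP6V0C (chromosome 16, 2513726 to 2520218) stood at 169, 215 and 223 CPM in siOSBPL3 and at 43.4, 43.8 and 44.9 CPM in siNC (2.199 ± 0.11 SE). ATP6V0B stood at 109, 119.8 and 132 CPM in siOSBPL3 and at 43.1, 41.9 and 44.9 CPM in siNC (1.48 ± 0.09). The groups of neither gene overlapped. The small e subunits moved alongside. ATP6V0E1 (chromosome 5, 172983771 to 173035445) stood at 127, 174 and 187 CPM in siOSBPL3 and at 28.6, 27.1 and 28.0 CPM in siNC (2.54 ± 0.13). ATP6V0E2 stood at 62.1, 77.1 and 73.9 CPM in siOSBPL3 and at 12.5, 14.4 and 14.5 CPM in siNC (2.36 ± 0.11). With the GC and length correction ATP6V0C was at 1.09, ATP6V0E2 at 1.50 and ATP6V0E1 at 2.60. ATP6V0C and ATP6V0E1 each have 4 pseudogenes named after them, and ATP6V0E2 overlaps its antisense gene ATP6V0E2-AS1 (5.44 CPM in siOSBPL3 and 0.911 CPM in siNC), so their counts are uncertain.

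The larger V0 subunits behaved otherwise. ATP6V0A1 encodes a form of the a subunit, which carries the proton path and whose isoform steers the pump to a given membrane. It stood at 50.0, 45.6 and 41.7 CPM in siOSBPL3 and at 45.8, 49.9 and 47.2 CPM in siNC (-0.06 ± 0.09, adjusted p = 0.58). ATP6V0A2 stood at 21.8, 24.8 and 26.1 CPM in siOSBPL3 and at 27.1, 29.5 and 26.2 CPM in siNC (-0.19 ± 0.11, adjusted p = 0.12). ATP6V0D1, the gene of the d subunit that joins ring and rotor, stood at 93.7, 129.5 and 127 CPM in siOSBPL3 and at 122, 112 and 113 CPM in siNC (0.02 ± 0.12, adjusted p = 0.90). Values of ATP6V0A1 and ATP6V0D1 overlapped between the groups and those of ATP6V0A2 nearly touched. The last 2 depended on the processing. With the GC and length correction ATP6V0A2 was called higher (0.34, adjusted p = 0.0069) and ATP6V0D1 lower (-0.69, adjusted p = 0.00087), while without siOSBPL3 replicate 1 ATP6V0D1 was called slightly higher (0.16, adjusted p = 0.030).

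ATP6V0A4 (chromosome 7, 138706294 to 138798196), the a subunit of acid-secreting cells of the kidney, fell in siOSBPL3; its exons overlap TMEM213 on the opposite strand. It had 4, 23 and 7 counts there (0.11, 0.63 and 0.18 CPM), against 189, 198 and 196 counts in siNC (5.75, 5.96 and 6.61 CPM), a log2 fold change of -4.31 ± 0.44. Without siOSBPL3 replicate 2, which holds most of those counts, it was -5.36. The 4 other markers of acid-secreting renal cells in the table summed to 0.246 to 0.665 CPM in siOSBPL3 and to 0.0602 to 0.183 CPM in siNC, with SLC4A1 at 0 in siOSBPL3. ATP6V0D2, a d subunit of osteoclasts and kidney, had 1, 8 and 1 counts in siOSBPL3 and 0 in siNC and was not tested.

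Genes of the V1 motor did not move as a block. The A and B subunits form the ring that hydrolyses ATP. ATP6V1A stood at 66.6, 83.2 and 108 CPM in siOSBPL3 and at 141, 148 and 141 CPM in siNC (-0.74 ± 0.14), but with the GC and length correction it was no longer called (-0.17, adjusted p = 0.23). ATP6V1B2 stood at 72.0, 86.2 and 92.8 CPM in siOSBPL3 and at 160.2, 173 and 166 CPM in siNC (-0.99 ± 0.10, and -0.87 with the correction). For both genes all siOSBPL3 values lay under all siNC values. The central rotor genes rose. ATP6V1D stood at 67.6, 95.4 and 108 CPM in siOSBPL3 and at 45.1, 47.6 and 50.7 CPM in siNC (0.92 ± 0.14), with exons that overlap EIF2S1 on the opposite strand. ATP6V1F was at 111, 132 and 134 CPM in siOSBPL3 and at 71.9, 63.5 and 69.1 CPM in siNC (0.88 ± 0.10, and 0.30 with the correction).

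In the stalks that hold the V1 ring, the isoforms of 1 subunit had different values. ATP6V1E1, with 1 pseudogene named after it, stood at 169, 199 and 208 CPM in siOSBPL3 and at 93.7, 92.4 and 94.6 CPM in siNC (1.04 ± 0.09). Its relative ATP6V1E2, known from testis, was at 14.5, 13.04 and 12.1 CPM in siOSBPL3 and at 2.07, 3.49 and 2.90 CPM in siNC (2.23 ± 0.20). ATP6V1C1 was at 62.1, 64.0 and 68.5 CPM in siOSBPL3 and at 87.7, 85.6 and 80.3 CPM in siNC (-0.38 ± 0.08). Corrected for GC content and length, it turned to 0.32 (adjusted p = 0.0011). ATP6V1C2 (chromosome 2, 10720943 to 10785110), known from kidney and lung, was at 6.84, 6.73 and 5.69 CPM in siOSBPL3 and at 0.61, 0.84 and 0.71 CPM in siNC (3.15 ± 0.25). Exons of ATP6V1C2 overlap those of PDIA6 on the opposite strand, which stood at 512 CPM in siOSBPL3 and 122 CPM in siNC, so its reads cannot be told apart from PDIA6 reads without the strand setting.

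Of the G and H stalk genes, ATP6V1H and ATP6V1G1 showed small differences. ATP6V1H was at 55.8, 70.3 and 72.8 CPM in siOSBPL3 and at 51.3, 52.1 and 52.2 CPM in siNC (0.35 ± 0.10, adjusted p = 0.0069). ATP6V1G1 was at 119, 134 and 156 CPM in siOSBPL3 and at 118, 113 and 117 CPM in siNC (0.24 ± 0.10, adjusted p = 0.046, and 0.37 with GC content and length corrected for). It has 5 pseudogenes named after it, so its counts are uncertain too. The call of ATP6V1G1 did not hold without siNC replicate 1 (adjusted p = 0.082), 2 (0.12) or 3 (0.088) or without siOSBPL3 replicate 2 (0.071) or 3 (0.14). It was also lost with RLE factors (0.051), with DESeq2 (0.057) and, at the threshold, with limma-voom (0.05). ATP6V1G2, known from brain, had 36, 1 and 6 counts in siOSBPL3 and 49, 34 and 35 in siNC (-1.66 ± 0.76, adjusted p = 0.063). It was called lower without siOSBPL3 replicate 1 (-3.70, adjusted p = 0.00014), with limma-voom (-2.71, adjusted p = 0.0086) and with GC content and length corrected for (-1.87, adjusted p = 0.048). The remaining symbols were scarce. ATP6V1FNB, a neighbour of ATP6V1F that is no pump subunit, was at 0.60 to 0.86 CPM in siOSBPL3 and at 0.21 to 0.37 CPM in siNC (1.35 ± 0.47, adjusted p = 0.020). With the GC and length correction it was at 0.73 and no longer called (adjusted p = 0.16). The call was also lost without siOSBPL3 replicate 1 (0.053) or siNC replicate 2 (0.10) or 3 (0.087), and with DESeq2 (0.0565). ATP6V1G2-DDX39B, a read-through of neighbouring genes, was under the filter.

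**Figure D3:**
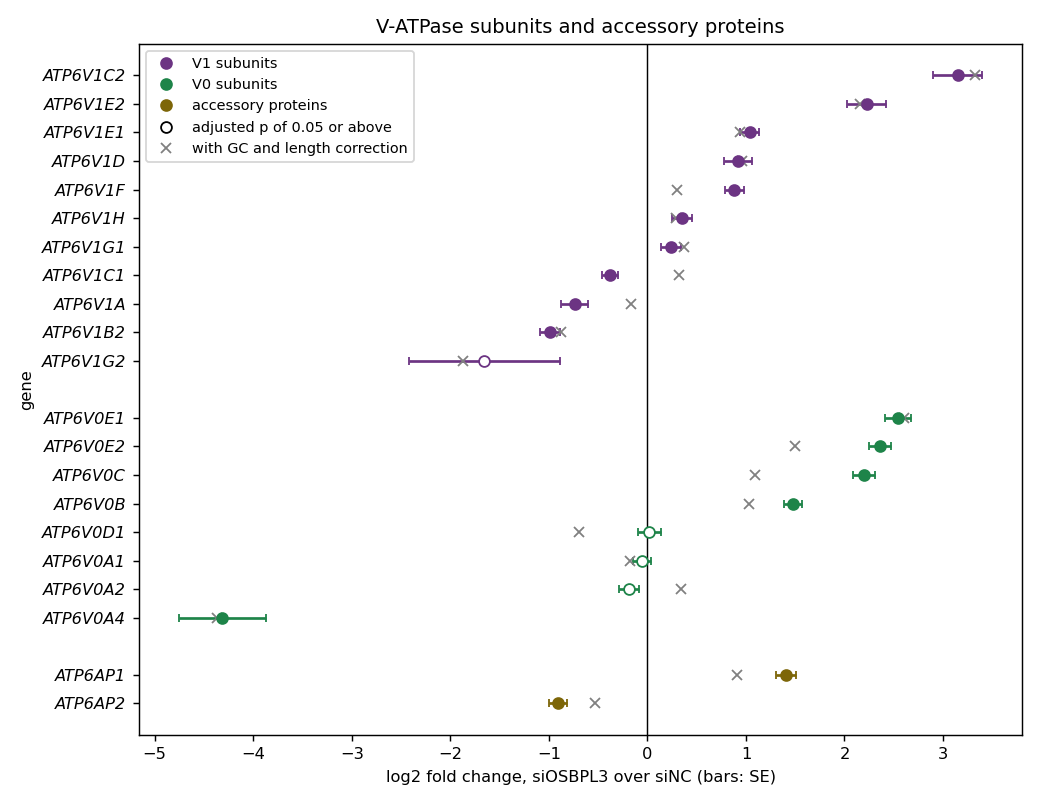
Log2 fold change of siOSBPL3 over siNC (horizontal axis; bars are SE) for each tested V-ATPase gene, grouped into V1 subunits, V0 subunits and accessory proteins; open circles did not pass the test, and crosses give the value with the GC and length correction. ATP6V0E1 (2.54), ATP6V0E2 (2.36) and ATP6V0C (2.199) lie on the right, ATP6V1B2 (-0.99) and ATP6V0A4 (-4.31) on the left.

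The accessory proteins of the pump, both encoded on the X chromosome, moved in opposite directions. ATP6AP1 (X, 154428677 to 154436516), which takes part in assembly of V0, stood at 84.1, 104 and 96.8 CPM in siOSBPL3 and at 39.6, 33.3 and 34.4 CPM in siNC (1.41 ± 0.10). ATP6AP2 (X, 40580970 to 40606848), also known as the prorenin receptor, stood at 84.8, 86.0 and 100.01 CPM in siOSBPL3 and at 175, 166 and 167 CPM in siNC (-0.91 ± 0.09). The groups of neither gene overlapped, and both calls held with the GC and length correction, at 0.91 and -0.53.

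The LAMP genes also parted. LAMP1 (chromosome 13, 113297239 to 113323672) stood at 316, 410.4 and 372 CPM in siOSBPL3 and at 235, 246 and 237 CPM in siNC (0.61 ± 0.10). LAMP2 (X, 120426148 to 120469349), an isoform of which is the receptor of chaperone-mediated autophagy, stood at 68.7, 78.0 and 91.3 CPM in siOSBPL3 and at 115, 119 and 118 CPM in siNC (-0.57 ± 0.10). Neither gene's groups overlapped, but neither call held once GC content and length were corrected for, at 0.15 (adjusted p = 0.19) for LAMP1 and, with the direction turned, 0.13 (adjusted p = 0.16) for LAMP2. LAMP3 (chromosome 3, 183122215 to 183163813), a marker of mature dendritic cells that interferon induces, stood at 37.5, 24.2 and 24.6 CPM in siOSBPL3 and at 0.67, 0.30 and 0.40 CPM in siNC (5.96 ± 0.28, and 6.16 with the correction). It was scarce in siNC, at 22, 10 and 12 counts.

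Ratios of related members within a library do not depend on how libraries were scaled. Log2 ratios were compared for 13 pairs with a two-sided exact permutation test over libraries, whose smallest p for 3 against 3 is 0.10. The groups did not overlap for 11 pairs, each at that smallest p (adjusted over the 13 pairs, 0.12). Taken singly, 83.0% of all tested genes did not overlap. The share over pairs of other genes was not computed, so nothing particular to these pairs is read from this count. CTSV and CTSL were at near-equal counts in siNC, with a log2 ratio of -0.11 ± 0.20 (SD, n = 3), whereas in siOSBPL3 it was -3.09 ± 0.13. For LAMP2 over LAMP1 the ratio was -2.21 ± 0.18 in siOSBPL3 and -1.03 ± 0.02 in siNC. For ATP6AP2 over ATP6AP1 it was -0.07 ± 0.18 in siOSBPL3 and 2.25 ± 0.09 in siNC. The ring gene ATP6V0C over the motor gene ATP6V1A was at 1.25 ± 0.18 in siOSBPL3 and at -1.70 ± 0.05 in siNC. For ATP6V0E2 over ATP6V0E1 (-1.18 ± 0.15 in siOSBPL3 and -1.02 ± 0.15 in siNC) and ATP6V0A2 over ATP6V0A1 (-0.92 ± 0.26 in siOSBPL3 and -0.79 ± 0.05 in siNC) the groups overlapped. These are ratios of counts, not corrected for length or GC content.

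**Figure D4:**
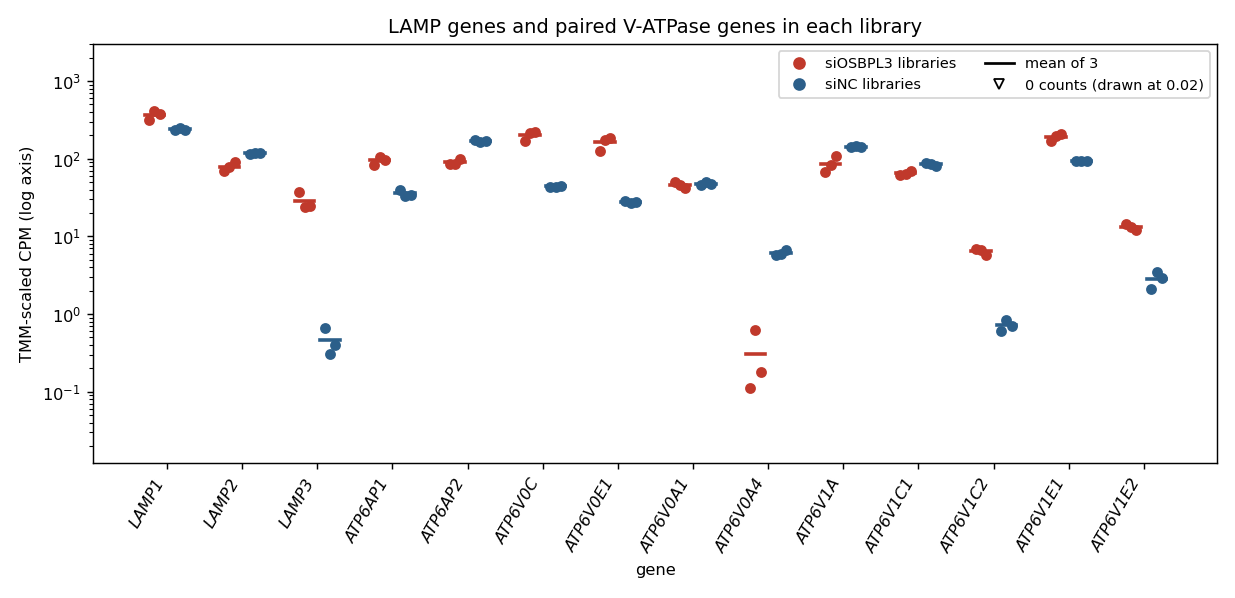
TMM-scaled CPM (log axis) of the LAMP genes and of related V-ATPase genes, with a point for each library, siOSBPL3 in red and siNC in blue, and bars at the means of 3 libraries. ATP6AP1 lies higher and ATP6AP2 lower in siOSBPL3, and LAMP3 reaches at least 24.2 CPM in siOSBPL3 while it stays at or below 0.67 CPM in siNC.

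Members that rose and fell also differed in their transcripts. Across the 32 members above the filter in both groups, the log2 fold change had a Spearman correlation of 0.43 with the GC content of the longest transcript and of -0.31 with its length. Across all tested genes these were 0.39 and -0.23. The points share the same 6 libraries, so no test is given. Median GC content was 52.6% in the 22 members that rose and 40.2% in the 6 that fell, against 49.5% in all tested genes. Median length was 2163 bases in those that rose and 4310.5 bases in those that fell, against 3256 bases in all.

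Promoter windows (250 bases before to 50 after the start, RefSeq, GRCh38.p14) were given for 26 of the 41 members. They were searched on both strands for the E-box CACGTG and for TCACGTGA, which contains it. The first was found in 8 of 26 member windows (30.8%), against 9.91% of 12043 windows of tested genes and 7.43% of all 27305 windows. TCACGTGA was found in 4 of 26 (15.4%), against 1.81% of tested genes, and these 4 are shown because they carry the motif typical of lysosomal genes. Only bases before the start are printed, with the motif in capitals, each on the strand of its gene; LAMP1 holds a second copy that spans its start.
ATP6V0D1 (chr16:67481170-67481257, minus strand): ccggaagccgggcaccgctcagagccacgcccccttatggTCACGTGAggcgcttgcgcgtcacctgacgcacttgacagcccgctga
ATP6V1G1 (chr9:114587670-114587757, plus strand): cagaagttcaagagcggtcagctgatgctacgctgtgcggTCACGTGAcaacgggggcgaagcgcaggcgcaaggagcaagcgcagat
CTSA (chr20:45891269-45891334, plus strand): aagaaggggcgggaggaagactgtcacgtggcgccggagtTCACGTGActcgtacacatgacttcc
LAMP1 (chr13:113297170-113297238, plus strand): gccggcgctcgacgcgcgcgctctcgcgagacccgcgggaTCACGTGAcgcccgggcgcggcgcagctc

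These 4 genes did not share a response. CTSA rose (log2 fold change 1.80), LAMP1 (0.61) and ATP6V1G1 (0.24) were called higher and ATP6V0D1 was not called (0.02). The remaining member windows with an E-box were those of ATP6V0B, ATP6V0E2, CTSD and CTSF. By call, 7 of 18 windows of members that rose held CACGTG, as did 0 of 3 of those that fell and 1 of 4 of those not called. The interferon-stimulated response element was in 0 of 26 member windows, against 2.85% of tested genes. A match describes letters in a window and shows no binding, and no match says nothing of a factor.

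Genes of the same compartment outside the rule gave a background for the members. Of 109 such genes tested, in lists of hydrolases, membrane proteins, sorting factors, regulators, pump assembly factors and cathepsin inhibitors, 63 rose, 24 fell and 22 were not called, with a median log2 fold change of 0.45 over those above the filter in both groups, and of 0.26 corrected for GC content and length. Among all tested genes 40.4% rose and 39.8% fell. The list of hydrolases also holds NPC2, GM2A and HGSNAT, which are not hydrolases and were called higher. Of its 36 genes tested, 25 rose and 4 fell, with a median of 1.07 over 35 genes. With the GC and length correction the median was 0.93. ACP2, the lysosomal acid phosphatase gene, was at 71.0 ± 3.70 CPM in siOSBPL3 and at 12.3 ± 0.75 CPM in siNC (SD, n = 3 each; 2.53 ± 0.10 SE), and the carboxypeptidase gene CPVL rose by 2.70 ± 0.11. GALC, which encodes galactosylceramidase, was at 24.0 ± 3.98 CPM in siOSBPL3 and had no count in siNC. LIPA, the lysosomal acid lipase gene, fell to 72.2 ± 6.42 CPM in siOSBPL3, against 148 ± 1.95 CPM in siNC (-1.03 ± 0.09), and HEXA (-0.30) and PRCP (-0.29, and -0.04 with the correction) were slightly lower. Of the enzymes that CTSA shields, GLB1 rose (0.89 ± 0.09), while NEU1 was at 35.8 ± 7.79 CPM in siOSBPL3 and 35.8 ± 2.70 CPM in siNC and was not called. Corrected for GC content and length, NEU1 was called lower (-0.55, adjusted p = 0.011). GLB1 and NEU1 were chosen after their values were seen.

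Other lysosomal membrane genes were split, with 11 of 22 higher and 5 lower (median 0.27), against 40.4% and 39.8% of all tested genes. Corrected for GC content and length, 10 were higher and 8 lower. Of all 13818 genes in the corrected fit, 5425 were higher and 5306 lower. The calcium channel gene MCOLN1 rose (1.59 ± 0.15, and 0.74 with the correction), as did SCARB2 (0.79 ± 0.08, and 1.25 with it), which carries an enzyme to lysosomes, and OSTM1 (1.48 ± 0.16, and 2.25 with it). The cholesterol exporter gene NPC1 fell to 38.1 ± 3.53 CPM in siOSBPL3, against 95.3 ± 1.71 CPM in siNC (-1.32 ± 0.09), and SIDT2 (-1.14 ± 0.14) and the arginine sensor gene SLC38A9 (-1.64 ± 0.23) fell too. Of 16 sorting genes 6 rose and 6 fell (median -0.05), close to the 40.4% and 39.8% of all tested genes. CLN3 (1.41 ± 0.11), PSAP (0.97 ± 0.09) and NAGPA (1.42 ± 0.16) rose, and the trafficking genes VPS35 (-0.83 ± 0.08), VPS26A (-0.82 ± 0.09) and GGA3 (-0.97 ± 0.11) fell. With the correction only 3 of these 16 were called lower, and VPS35 was at -0.17, VPS26A at -0.38, PSAP at 0.55, CLN3 at 0.90 and NAGPA at 0.46.

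Of 20 regulators, 13 rose and 4 fell (median 0.58), against 40.4% and 39.8% of all tested genes. With the GC and length correction only 7 rose and 5 fell (median -0.03). Of the 13818 genes in that fit, 5425 rose and 5306 fell. LAMTOR5 (1.13 ± 0.08), RRAGC (1.10 ± 0.11) and LAMTOR2 (0.91 ± 0.10, and 0.13 with the correction), which hold mTORC1 at lysosomes, rose. FNIP1 (-1.53 ± 0.10, and -0.71 with the correction), FNIP2 (-0.87 ± 0.13, and -0.28 with the correction) and RRAGB (-1.04 ± 0.17) fell. The factors that bind the lysosomal E-box, chosen here after their values were seen, were called higher. TFEB was at 5.96 ± 0.45 CPM in siOSBPL3 and 2.82 ± 0.50 CPM in siNC, MITF at 2.88 ± 0.37 CPM in siOSBPL3 and 0.91 ± 0.29 CPM in siNC, and TFE3 at 80.8 ± 4.63 CPM in siOSBPL3 and 51.3 ± 2.46 CPM in siNC. With the correction the log2 fold change of TFE3 was -0.02 and that of TFEB 0.46, while that of MITF was 2.21 (0.66, 1.08 and 1.67 without it).

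Of 10 pump genes outside the rule, 4 rose and 4 fell (median -0.01), close to the 40.4% and 39.8% of all tested genes. NCOA7 (1.07 ± 0.11, and 1.74 with the correction), ROGDI (1.11 ± 0.14, and -0.04 with the correction) and WDR7 (0.96 ± 0.18, and 1.82 with it) rose. OXR1 (-2.96 ± 0.10), DMXL1 (-1.48 ± 0.10, and -0.41 with the correction) and DMXL2 (-0.45 ± 0.08, and 0.46 with the correction) fell. TCIRG1, which encodes the a3 subunit and was added after its value was seen, was at 62.4 ± 4.10 CPM in siOSBPL3 and 73.6 ± 3.42 CPM in siNC (-0.24 ± 0.08, and -1.30 with the correction). Of 5 cystatins, inhibitors of cysteine cathepsins, 4 rose and 1 fell, but CST1 and CST6 passed the filter through siOSBPL3 only. Of the 3 above it in both groups, 2 rose and 1 fell, against 40.4% and 39.5% of all such genes. CSTB stood at 313 ± 55.3 CPM in siOSBPL3 and at 59.1 ± 3.22 CPM in siNC (2.41 ± 0.13). CST3 rose by 1.13 ± 0.09 and CST6 by 3.88 ± 0.48 (2.55 with the correction), the last from 0.123 CPM in siNC. CST7, an inhibitor with activity on cathepsin C, was at 13.5 ± 1.66 CPM in siOSBPL3 and at 66.9 ± 2.91 CPM in siNC (-2.30 ± 0.11).

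**Figure D5:**
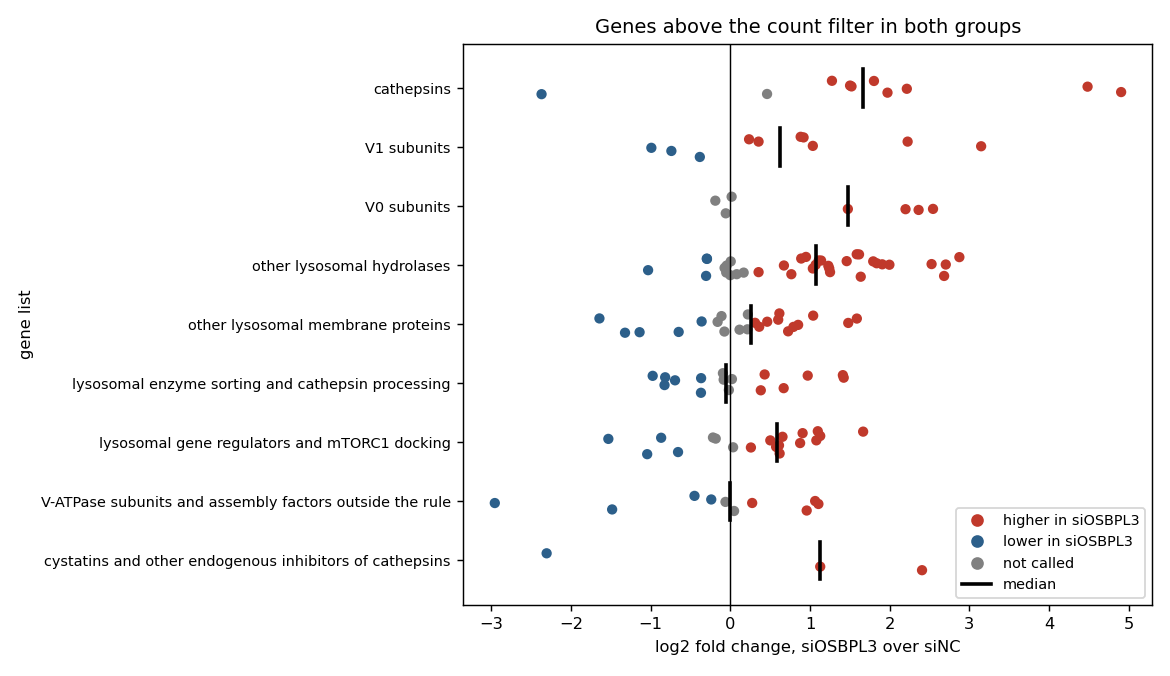
Log2 fold change of siOSBPL3 over siNC (horizontal axis) for each gene above the count filter in both groups, in the classes of members and the lists of other lysosomal genes; red points were called higher, blue points lower and grey points were not called, and black bars are medians. Cathepsins have a median of 1.66 and the list of other hydrolases of 1.07, while sorting genes (-0.05) and other pump genes (-0.01) lie around 0.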

How the data were processed

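RNA-seq counts of 6 libraries were used, 3 per group. Per the labels' protocols, RNA was taken up in Trizol and libraries were read paired-end by NovaSeq. The authors deposited raw counts per gene symbol. Per the submitters' processing notes, HISAT2 2.2.1, HTSeq 0.13.5 and GRCh38 were used. The annotation and strand setting are not given in the sources used here. Library names tied columns to samples. The members and lists were chosen with earlier results of these data known.

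Counts were tested with edgeR 4.0.16 (R 4.3.3): filterByExpr (minimum count 10, total 15), TMM scaling and a robust quasi-likelihood fit with group as its term. Two-sided p-values were adjusted by Benjamini-Hochberg across the 15506 genes tested, and 0.05 was the threshold. The SE is the log2 fold change divided by the root of F. Folds with 10 counts or fewer in a group are ratios with an exact 95% binomial interval. The script was tested on simulated data. Log2 ratios used a pseudocount of 0.5.

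All members are named. Values per library were set for members called at 2-fold or more with a mean of at least 5 CPM, for members not called at such a mean and for paralogue pairs, and up to 3 genes per direction were taken from each list. Any further gene was chosen after seeing its values.

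Alternatives were RLE factors or plain library totals, no filter or a mean of 5 CPM or more, limma-voom (3.58.1) or DESeq2 1.42.0 as the test, 0.01 as threshold, a block for replicate number, leaving out each library, and a smooth per-library correction for GC content and length of the longest GENCODE 29 transcript (mgcv 1.9.3, 89.1% of tested genes). Replicates all differed by more than sampling noise, with a chi-square of 2.98 to 52.05 per degree of freedom.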

Additional observations from a re-analysis of the deposited data

How the results depend on the processing

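Under 15 alternatives, members called higher numbered from 21 (a mean of at least 5 CPM) to 27 (no filter) and members called lower from 6 to 8, within 1.5 times of the 26 and 7 reported, and other lysosomal genes from 54 to 65 higher and 21 to 28 lower. Leaving out a library gave 24 to 26 members higher and 7 to 8 lower. The GC and length correction turned the direction of ATP6V0A2 (0.34), ATP6V0D1 (-0.69), ATP6V1C1 (0.32) and LAMP2 (0.13), and 30 of 38 members kept direction and call. Leaving out libraries in turn, the log2 fold change of ATP6V0D1 ran from -0.060 to 0.16 and that of ATP6V0A1 from -0.12 to 0.012. The difference between siOSBPL3 and siNC in the mean log2 ratio of ATP6V0A2 over ATP6V0A1 ran from -0.25 to 0.0097. For the other 12 pairs the direction of this difference held. The cause was not tested, beyond the smaller number of libraries. With a replicate block 25 members were called higher and 8 lower, ATP6V1FNB losing its call (adjusted p = 0.058) and ATP6V1G2 gaining one (-2.30). Deviations of same-numbered libraries correlated at -0.02, -0.0042 and -0.02. No shared deviation by number was seen, but such values cannot tell whether the numbers pair the samples. Library totals moved the median of all genes to 0.04. Depth limits CTSW, ATP6V0D2, ATP6V1G2-DDX39B and the siNC values of CTSE, CTSF and CTSO, which rest on 6 counts or fewer.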
